A study of Mus musculus with 2 samples.

Results

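The CD3 chains and the proteins that act next in T cell receptor signalling were followed through 9 genes, Cd3d, Cd3e, Cd3g, Cd247, Lck, Zap70, Lat, Lcp2 and Plcg1. They were chosen by gene name, and 15 of the 41174 probes on the array, out of 27601 gene names, measured them. Thymocytes at the double-positive (DP) stage, which carry both CD4 and CD8, gave the RNA, and 2 mouse arrays of 2 colours each, biological replicates 1 and 2 per the labels, compared the groups. On each array the Cy5 channel held Bcl11bF/FCD4Cre/Tcra-/- cells, in which Cre driven by Cd4 control sequences acts on floxed Bcl11b, and the Cy3 channel held TCRa-/- cells, for which the labels give neither Cre nor a floxed gene. Both groups lacked Tcra, so that, per the series' design, their DP cells were at the stage before selection, and each group had 2 samples. The deficient cells were always in Cy5 and alone had Cre, so neither dye nor Cre can be separated from the loss of Bcl11b. The labels give neither the age of the mice nor how many mice or which sort gave each sample.

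The T cell receptor has no signalling tail of its own. CD3 delta, epsilon and gamma pair beside it, and the CD247 (zeta) chains add most of the tyrosine motifs of the complex. The kinase LCK phosphorylates these motifs, ZAP70 binds them and phosphorylates the adaptors LAT and SLP-76 (the product of Lcp2), and PLC gamma 1, held by both adaptors, makes the second messengers that release calcium and activate RAS. Thymocytes use the same chain of proteins first under the pre-TCR and later, in DP cells, to read receptor strength in selection.

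Of the 9, the genes whose ratios lay farthest from 0 were 3 of the CD3 chain genes and Lcp2. The 250 bases before the annotated start site of each CD3 chain gene and of Lcp2 are printed to show which of 4 motifs their proximal promoters hold (RefSeq sequences, GRCm38.p6 build, 5′ to 3′ on the gene's own strand). Capitals mark CAGGTG, an E-box bound by E proteins, and GGAAGT, an ETS factor site, on either strand. Cd3g and Cd3d are neighbours read in opposite directions, with start sites 1355 bases apart.
Cd3g (chr9:44980432-44980681, minus strand): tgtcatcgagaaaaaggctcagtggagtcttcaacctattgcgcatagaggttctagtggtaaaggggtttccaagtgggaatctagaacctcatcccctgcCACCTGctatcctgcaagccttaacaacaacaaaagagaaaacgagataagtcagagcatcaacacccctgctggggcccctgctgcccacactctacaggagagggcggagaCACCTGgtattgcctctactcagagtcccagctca
Cd3d (chr9:44981536-44981785, plus strand): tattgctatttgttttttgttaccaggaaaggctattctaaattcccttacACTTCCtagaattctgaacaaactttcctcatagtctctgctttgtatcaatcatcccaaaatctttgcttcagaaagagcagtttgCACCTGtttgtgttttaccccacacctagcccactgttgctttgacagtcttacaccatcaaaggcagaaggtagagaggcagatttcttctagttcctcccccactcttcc
Cd3e (chr9:45009612-45009861, minus strand): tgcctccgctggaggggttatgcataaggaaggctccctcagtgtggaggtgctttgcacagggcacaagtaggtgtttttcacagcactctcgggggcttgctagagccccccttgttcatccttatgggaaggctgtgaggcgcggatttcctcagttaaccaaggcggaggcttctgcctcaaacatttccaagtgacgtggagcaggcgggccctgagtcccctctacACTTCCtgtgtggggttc
Cd247 (chr1:165788431-165788680, plus strand): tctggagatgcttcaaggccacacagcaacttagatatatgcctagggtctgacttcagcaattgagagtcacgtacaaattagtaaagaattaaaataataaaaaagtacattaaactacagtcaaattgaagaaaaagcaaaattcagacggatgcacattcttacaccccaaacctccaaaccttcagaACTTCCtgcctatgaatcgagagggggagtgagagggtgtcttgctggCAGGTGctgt
Lcp2 (chr11:34046678-34046927, plus strand): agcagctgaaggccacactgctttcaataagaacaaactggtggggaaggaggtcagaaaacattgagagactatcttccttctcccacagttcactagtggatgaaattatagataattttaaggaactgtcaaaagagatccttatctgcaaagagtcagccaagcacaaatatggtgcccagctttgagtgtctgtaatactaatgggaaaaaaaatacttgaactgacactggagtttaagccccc

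CAGGTG stood before Cd3g, Cd3d and Cd247, and in 17.2% of all 32851 RefSeq promoter windows of this length. GGAAGT stood before Cd3d, Cd3e and Cd247, and in 19.7% of all windows. Neither was found before Lcp2. TGTGGT, a RUNX site (in 4614 of all windows), and TGACCA, the site known for the paralogue BCL11A (11.4%), were found in none of these 5 windows. Of the 12 windows listed for the 9 genes, 7 held CAGGTG, 6 GGAAGT, 2 TGTGGT and 0 TGACCA, and no matches overlapped. Among the genes whose windows are not printed, CAGGTG also stood before Lck, Plcg1 and Zap70, and GGAAGT before Lck and Zap70. The windows show letters in a sequence and not binding.

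Of the 15 probes, 14 were well above background in at least 1 channel on both arrays and were tested with 21546 probes in all, each with 1 spot per array for these genes. Values below are first the processed signals of Agilent's software (scanner units) in each sample and then log2 ratios of deficient over control after normexp background correction and loess, as the mean ± SE (limma, n = 2 arrays). The targeted gene was lower by both its probes, at -1.40 and -0.28 on replicates 1 and 2 for the brighter Bcl11b probe and at -1.37 and -2.16 for the other. DP markers were present in both groups, with 9 of 9 listed genes well above background. Of these 9, which include Cd4, Cd8a, Cd8b1 and Ptcra, 6 were lower and 3 higher on both arrays, with a median log2 ratio of -0.24. Among all measured genes, each by its brightest kept probe, 38.5% were lower and 36.4% higher on both arrays. By their brightest kept probes the 9 DP markers ran from Arpp21, at -0.68 ± 0.07, to Dntt, which encodes terminal transferase, at 1.58 ± 0.10. Both genes were named after their values were seen. The 2 other kept Dntt probes did not share its rise, at -0.09 and -0.05, while the 2 others of Arpp21 read -1.07 and -0.50. Processed signals of the 9 markers summed to 278035 and 240804 in deficient cells, against 274940 and 239396 in control cells. Of these sums Dntt gave 101833 and 87490 in deficient cells and 45473 and 44308 in control cells. The part of DP marker levels in the ratios of the CD3 chain genes was not tested. No probe on the array passed an adjusted p of 0.05 (limma, 0% called), while 27% had an unadjusted p under 0.05 (13% as lower and 14% as higher). Fewer cells of a type and less RNA per cell cannot be told apart in such samples.

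**Figure D1:**
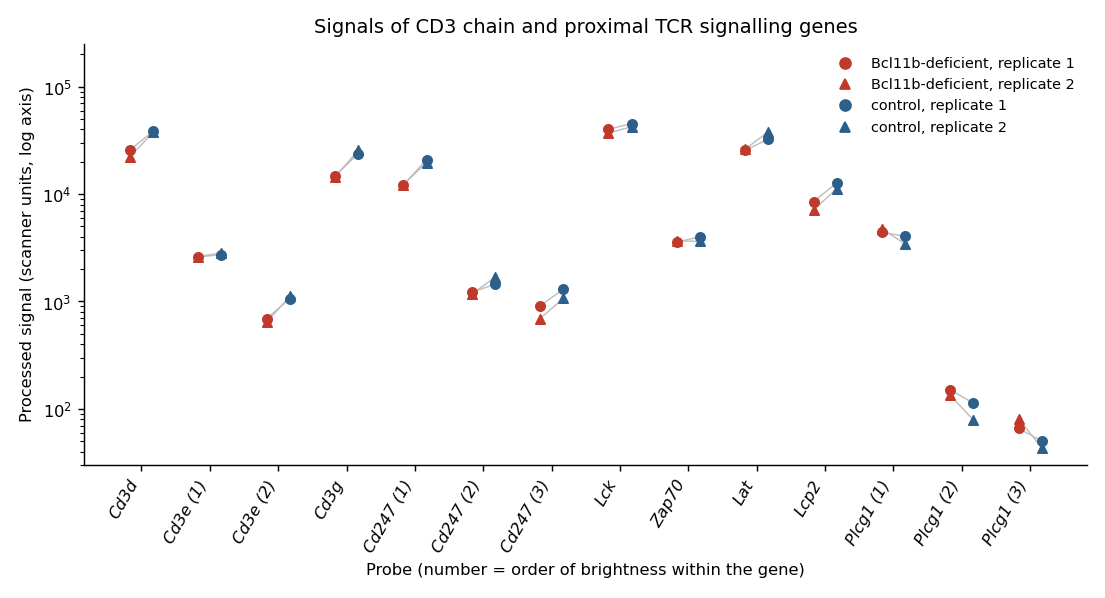
Processed signal (scanner units, log axis) of the 14 kept probes, deficient samples left and control samples right, with circles for replicate 1, triangles for replicate 2 and lines joining the samples of 1 array. The deficient samples lie below the controls for every CD3 chain probe and above them for every Plcg1 probe; levels of different probes cannot be compared.

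CD3 chain genes were lower in the deficient cells by each of their 7 kept probes on both arrays, against 36.9% of all kept probes lower on both. In the processed signals both deficient samples lay below both controls for 7 of 7 probes, against 30.5% of all kept probes. The probes of 1 gene share a target, so these 7 stand for 4 genes. Unadjusted p was under 0.05 for 6 of the 7, against 13% of kept probes that passed as lower, and none passed after adjustment (limma adjusted p from 0.0945 to 0.389).

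Cd3g, which encodes the gamma chain, had signals of 14706 and 14484 in deficient cells on replicates 1 and 2, against 23841 and 25482 in control cells. The groups were well apart, with deficient cells at 61.7% and 56.8% of control. Its log2 ratio was -0.57 and -0.66, and averaged -0.61 ± 0.07 (limma adjusted p = 0.0945). Only 1.55% of kept probes had a lower mean ratio. The probe lies on chromosome 9 at 44724628 to 44725212 (mm8 build).

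Cd3d, the delta chain gene, read 25712 and 22243 in deficient cells and 38372 and 37499 in control cells, again without overlap. Its log2 ratio was -0.35 and -0.51 (mean -0.43 ± 0.08, limma adjusted p = 0.114). The probe, at 44737083 to 44737314 on chromosome 9 (mm8), is brighter than 99.3% of kept probes. The brightest kept probes, which served as its probes of like intensity, had median ratios of 0.24 and 0.25 on the 2 arrays. Most of them are dimmer than Cd3d, which stood at -0.68 relative to them. The processed signals, normalised between dyes by another method, gave -0.67. Median centring, which leaves ratios uncorrected for intensity, gave 0.23, so the direction of Cd3d also depended on the normalisation.

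Cd3e, the epsilon chain gene, was read differently by its 2 probes. The brighter, at 44750166 to 44750225, had 2592 and 2621 in deficient cells and 2737 and 2830 in control cells. These groups did not overlap but differed little, and the log2 ratio was -0.11 ± 0.07. The other probe, at 44754896 to 44754955, had 693 and 641 in deficient cells and 1059 and 1116 in control cells. It stood at -0.48 and -0.62 (mean -0.55 ± 0.08, limma adjusted p = 0.102), close to Cd3g. Which probe follows the level of the Cd3e transcript was not tested.

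Cd247, the zeta chain gene on chromosome 1, had 3 kept probes, all lower. The brightest, at 167698399 to 167698458 (mm8), read 12201 and 12264 in deficient cells, against 20854 and 19661 in control cells. Deficient cells thus had 58.5% and 62.4% of the control signal, and the log2 ratio was -0.61 ± 0.07 (limma adjusted p = 0.0945). The second, at 167693111 to 167694129, read 1220 and 1167 in deficient cells and 1443 and 1678 in control cells, or -0.31 ± 0.09 in log2 ratio. The third, at 167713822 to 167713881, read 910 and 692 in deficient cells and 1300 and 1068 in control cells, or -0.48 ± 0.07. The remaining Cd247 probe, at 167703840 to 167703899, was not well above background in either channel on either array and gave no ratio.

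**Figure D2:**
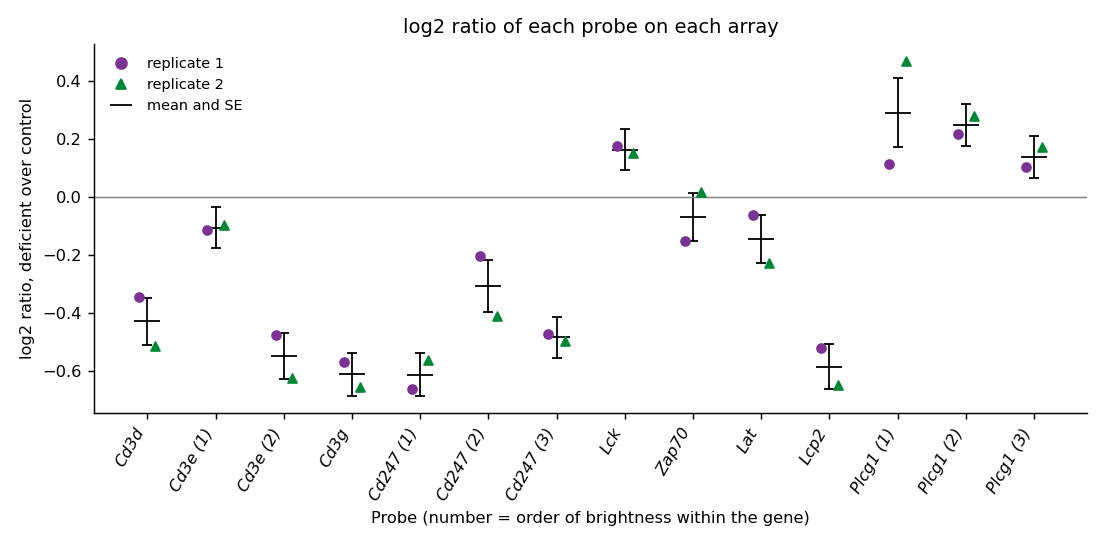
log2 ratio of deficient over control for each of the 14 kept probes, with circles for replicate 1, triangles for replicate 2 and bars for the mean and its SE (limma). The CD3 chain and Lcp2 probes lie between -0.61 and -0.11, and the Plcg1 probes between 0.14 and 0.29.

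The kinases differed little between the groups. Lck, the SRC family kinase that starts the cascade, read 40099 and 37114 in deficient cells and 45306 and 42321 in control cells. The deficient signals were the lower ones, at 88.5% and 87.7% of control, yet after loess the log2 ratio was 0.18 and 0.15 (mean 0.16 ± 0.07, limma adjusted p = 0.242). The probe, on chromosome 4 at 129050906 to 129050965 (mm8), is brighter than 99.7% of kept probes. Centred on probes of like intensity, for Lck the same mostly dimmer window as for Cd3d, it read -0.08. The direction of Lck therefore followed the normalisation, and the processed signals gave -0.18. Zap70, whose kinase docks on phosphorylated chains, read 3569 and 3675 in deficient cells and 4012 and 3623 in control cells. These groups overlapped, and the log2 ratio was -0.15 on replicate 1 and 0.02 on replicate 2 (mean -0.07 ± 0.08).

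The adaptors were both lower. Lcp2, which encodes SLP-76, had 8528 and 7094 in deficient cells and 12684 and 11243 in control cells. The groups did not overlap, and the log2 ratio was -0.52 and -0.65 (mean -0.58 ± 0.08, limma adjusted p = 0.0987), as low as that of Cd3g and Cd247 within their SE. Lat, which encodes the membrane scaffold, had 25583 and 26236 in deficient cells and 32551 and 38000 in control cells. These did not overlap either, but its log2 ratio was -0.06 and -0.23 (mean -0.14 ± 0.08, limma adjusted p = 0.335). Lat is also very bright, and read -0.37 relative to probes of like intensity and -0.44 from the processed signals, but 0.47 with median centring. The Lcp2 probe lies on chromosome 11 at 33990902 to 33990961, and the Lat probe on chromosome 7 at 126155353 to 126155412 (mm8).

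Plcg1, the phospholipase gene, was higher by each of its 3 probes on both arrays, where 36.7% of all kept probes were higher on both. In the processed signals both deficient samples lay above both controls for 3 of 3 probes, against 24.9% of kept probes. The brightest, on chromosome 2 at 160454385 to 160454444 (mm8), read 4433 and 4767 in deficient cells and 4029 and 3424 in control cells. The groups did not overlap, but the arrays differed, with log2 ratios of 0.11 and 0.47 (mean 0.29 ± 0.12, limma adjusted p = 0.230). The second probe read 150 and 134 in deficient cells and 113 and 78.7 in control cells, or 0.25 ± 0.07 in log2 ratio. The third was not well above background in control cells on either array. It was kept through the deficient channel alone, so its direction adds no support to the counts above. Its log2 ratio was 0.14 ± 0.07 (limma adjusted p = 0.304).

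**Figure D3:**
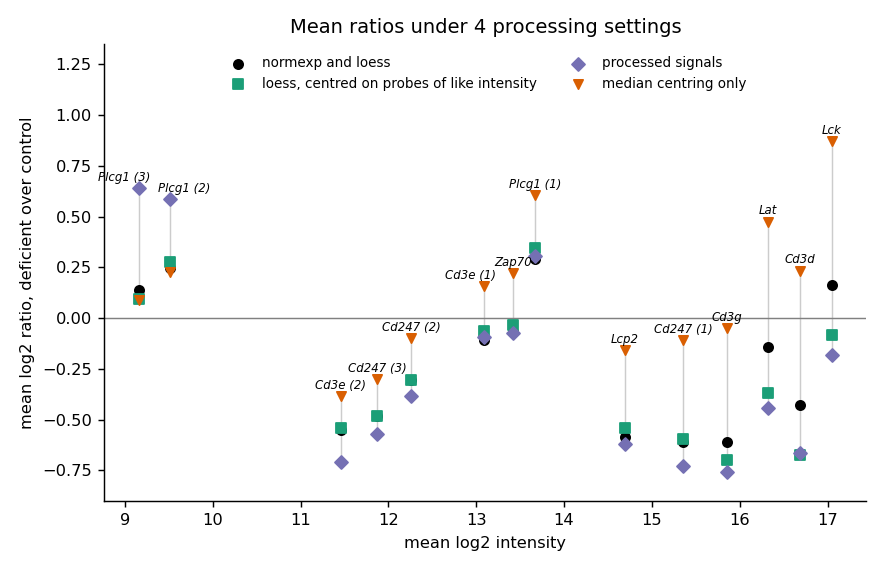
Mean log2 ratio (vertical axis) of the 14 kept probes against mean log2 intensity (horizontal axis) under 4 settings: normexp with loess, the same centred on probes of like intensity, processed signals, and median centring alone. The settings part most at the bright end, where Lck runs from -0.18 to 0.87 and Cd3d from -0.68 to 0.23.

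Counted as genes, each by its brightest kept probe, 6 of 9 were lower on both arrays, against 38.5% of all measured genes, 2 were higher, against 36.4%, and Zap70 was split. Of the 9, 4 (Cd3d, Cd3g, Cd247 and Lcp2) had an unadjusted p under 0.05, all lower, where 14.1% of all measured genes did so as lower. The median log2 ratio over the 9 was -0.14, against 0.00 over all kept probes. Within 1 array the genes spanned 0.84 on replicate 1, between Cd247 and Lck, and 1.12 on replicate 2, between Cd3g and Plcg1. Separate-channel limma, which treats the colours as paired samples, called Cd247, Cd3g and Lcp2 and the second Cd3e probe as lower (adjusted p from 0.0308 to 0.0484), where 2.36% of kept probes were called as lower. With median centring, which leaves ratios uncorrected for intensity, the median turned to 0.22 and Lck alone was called, as higher (limma adjusted p = 0.0432), where 3.94% of kept probes were. There 6 of 9 genes were higher on both arrays, against 53.7% of kept probes, 1 was lower on both, against 23%, and 0 were lower at an unadjusted p under 0.05, against 6.23% (limma). The processed signals and the deposited value table each left 1 gene, Plcg1, higher on both arrays (33.4% of kept probes in each), and so did centring on like intensity (36.6%). With median centring, the brightest kept probes, the window used for both Cd3d and Lck, had a median of 0.86. Lck stood at 0.87 and Cd3d at 0.23, and most probes of that window are dimmer than either. Cd3g, at -0.05, lay under the median of probes about as bright as itself, at 0.66.

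The pattern over 2 arrays is shared by many other probes. Besides Cd3g, 87 kept probes had both ratios within 0.1 of it, and besides Cd247 78 did. For Lcp2 the number was 97, for Plcg1 387 and for Zap70 1924.

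Coreceptor and pre-TCR genes went both ways. Cd4 had a log2 ratio of -0.35 ± 0.12, Ptcra, the pre-TCR alpha chain gene, -0.24 ± 0.07, and Ptprc, the CD45 phosphatase gene, -0.13 ± 0.08. Cd8a stood at 0.01 ± 0.07, but at -0.34 from the processed signals and -0.24 relative to probes of like intensity. Cd8b1, with a very bright probe, stood at 0.48 ± 0.07 (limma adjusted p = 0.102), but at 0.07 from the processed signals. Its other kept probe read 0.06. Of these 5 genes, 3 were lower and 2 higher on both arrays, against 38.5% and 36.4% of all measured genes, with a median of -0.13.

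Further genes of the proximal pathway, 24 kinases, adaptors and effectors, had a median log2 ratio of -0.15. On both arrays 12 were lower and 7 higher, against 38.5% and 36.4% of all measured genes. At an unadjusted p under 0.05 6 were lower and 2 higher (limma), where 14.1% and 15.1% of all measured genes were. The lowest were Tec, a TEC family kinase gene, at -0.68 ± 0.11, Trat1, which encodes an adaptor of the receptor complex, at -0.59 ± 0.29 and Prkcq, the PKC theta gene, at -0.47 ± 0.07. Trat1 differed between arrays, at -0.06 on replicate 1 and -1.11 on replicate 2.

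Among the highest of these 24, Unc119, which encodes an activator of LCK and FYN in T cells, had signals of 793 and 835 in deficient cells and 241 and 160 in control cells. The groups lay far apart, and the log2 ratio was 1.37 and 1.75 (mean 1.56 ± 0.12, limma adjusted p = 0.0914). Pik3cd, the PI3 kinase delta gene, followed at 0.73 ± 0.12, although its other probe read 0.00, and then Nck2, an adaptor gene, at 0.22 ± 0.12. Grap2, which encodes the GADS adaptor that joins SLP-76 to LAT, was named after its value was seen and stood at -0.27 ± 0.07.

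**Figure D4:**
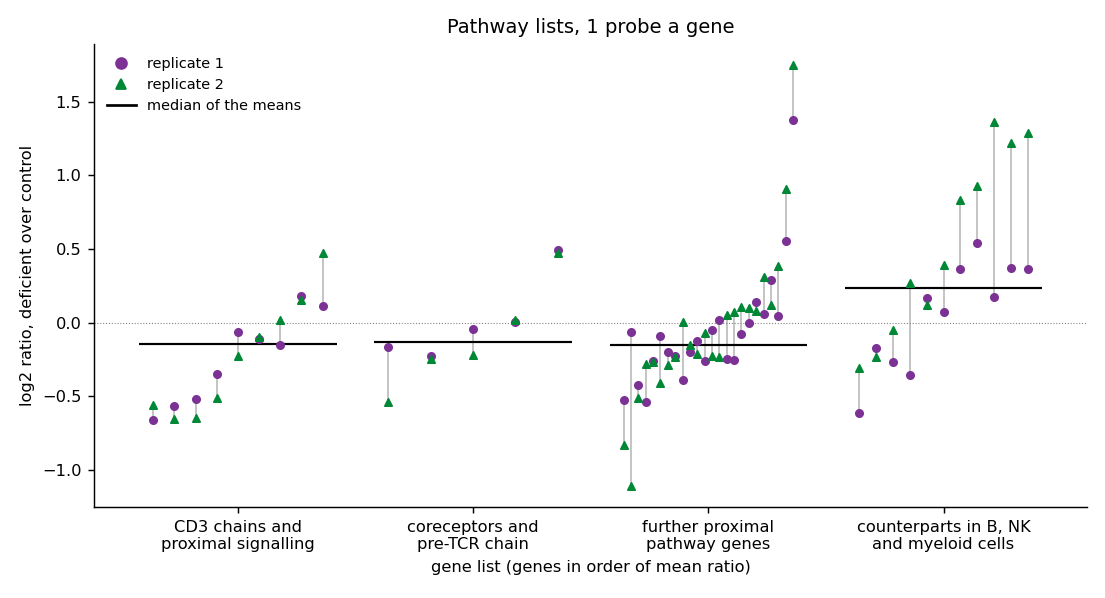
log2 ratio of each gene on replicate 1 (circles) and replicate 2 (triangles), by gene list, with a line at each list's median. The medians are -0.14 for the 9 genes, -0.13 for coreceptors and pre-TCR chain, -0.15 for the further pathway genes and 0.23 for the counterparts in B, NK and myeloid cells.

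Genes that do the same work in B, NK and myeloid cells had a median log2 ratio of 0.23. Of 11 measured genes, 7 were higher on both arrays, against 36.4% of all measured genes, and 3 were lower, against 38.5%, a difference that was not tested. Cd79a was not well above background. Fcer1g, the Fc receptor gamma chain that can stand in for zeta, was at 0.37 on replicate 1 and 1.29 on replicate 2 (mean 0.83 ± 0.26). Lyn, a SRC family kinase gene, was at 0.37 and 1.22, and Plcg2, the B cell counterpart of Plcg1, at 0.17 and 1.37. The other kept probes of Fcer1g and Lyn had lower mean ratios, of 0.56 and 0.23. The lowest were Cd79b at -0.46 ± 0.11 and Blk at -0.20 ± 0.07. Syk, the other kinase of the ZAP70 family, was singled out after its value was seen. It read 859 and 819 in deficient cells and 561 and 382 in control cells, with log2 ratios of 0.54 and 0.93 (mean 0.73 ± 0.12, limma adjusted p = 0.107).

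Genes listed as markers of other cells differed between the groups too. Whether other cells or the thymocytes themselves gave these signals was not tested. Erythroid markers, 3 of 4 measured, were lower on replicate 1 and higher on replicate 2, with summed processed signals of 71769 and 107936 in deficient cells and 127481 and 20139 in control cells. Macrophage or monocyte markers, 7 of 7 measured, summed to 28246 and 30214 in deficient cells and 25581 and 9912 in control cells. Most of each sum was Lyz2, at 25054 and 28033 in deficient cells and 23207 and 8756 in control cells. Of the 7 genes, 4 were higher and 2 lower on both arrays. Over all measured genes, 36.4% were higher and 38.5% lower on both. NK markers, 6 of 8 measured with Ncr1 and Klre1 not well above background, summed to 10779 and 10400 in deficient cells, against 5248 and 4499 in control cells. On both arrays 5 of these 6 were higher and 1, Prf1, was lower. Stromal or endothelial markers summed to 5153 and 2066 in deficient cells, against 3222 and 939 in control cells (6 of 7, Cdh5 not well above background). On both arrays 5 of these were higher and 1 lower. B cell markers summed to 3868 and 2853 in deficient cells, against 6068 and 3610 in control cells (5 of 6, Cd79a not well above background). Most of each sum was Cd79b, and 3 of the 5 were lower and 0 higher on both arrays. Of 6 gamma delta T cell markers 3 were measured, as Trdc and Tcrg-C1 had no probe and Sox13 was not well above background. On both arrays 2 were higher and 1 lower. Of the 2, Il17a was kept through the deficient channel alone, so its direction adds no support. The part of other cells, if any, in the ratios of Syk, Fcer1g, Lyn and Plcg2 was not tested. The median ratio of the 9 genes was -0.15 on replicate 1 and -0.23 on replicate 2, and the part of other cells in it was not tested either.

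The 3 linked Cd3 genes span 30.3 kb of probe positions on chromosome 9 (mm8). Within 200 kb on either side, 17 other kept probes of 14 names had a median log2 ratio of -0.09. On both arrays 8 were lower and 3 higher, against 36.9% and 36.7% of all kept probes. Kmt2a and the nearest gene on one side, Ube4a, did not keep 1 direction over arrays or probes. Mpzl2, an adhesion molecule gene on the other side, stood at 0.63 ± 0.22. Beyond it Scn2b, a sodium channel subunit gene 126 kb from the cluster, read -1.92 and -2.28, the third lowest mean of all kept probes. Tmprss4, a membrane protease gene 169 kb away, read -0.90 on replicate 1, and on replicate 2 was not well above background in deficient cells. Its size depended on the processing, with a mean of -2.30 from the processed signals. These neighbours were described after their values were seen.

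**Figure D5:**
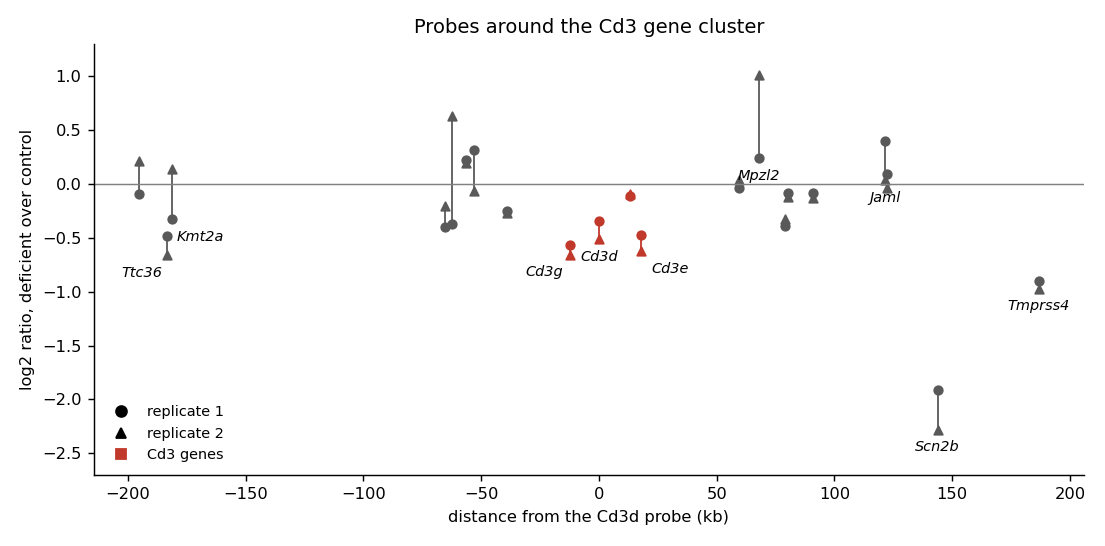
log2 ratio on replicate 1 (circles) and replicate 2 (triangles) of kept probes around the Cd3 genes (red), by distance from the Cd3d probe in kb. The Cd3 probes lie between -0.66 and -0.10, most nearby probes lie around 0, and Scn2b and Tmprss4 lie lowest, Tmprss4 on replicate 2 and Ttc36 on both arrays with deficient signals not well above background.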

How the data were processed

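RNA of DP thymocytes was amplified, labelled and hybridised on 2 arrays, both of 1 slide. The deposited mean and local background signals are uncorrected intensity values, read with Agilent Feature Extraction 9.5.3.1 per the submitters' processing notes. Per the file headers, that software also gave processed intensities, from which background and a spatial trend had been removed and whose dyes had been balanced. The authors' log ratio is log10, processed Cy5 over Cy3, and the deposited value table of the series equals that log10 ratio to within 0.005.

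Here signals were corrected by normexp (offset 50) and normalised by loess in R 4.3.3 with limma 3.58.1, with weight 0 for control spots. Spots marked as outlying (108 and 116) were left out. Probes well above background in 1 channel on both arrays were kept (21546 of 41174), named by accession, symbol or synonym, and tested against 0 with limma's moderated test and Benjamini-Hochberg adjustment. The test had 1 residual degree of freedom and a prior of 2.46, and was tested on simulated data. The number of arrays limits the precision, and what separates the replicates beyond the labels' word biological is not given. Each gene was counted by its brightest kept probe, and centring on like intensity used the 500 nearest kept probes. The brightest probes, among them those of Cd3d and Lck, shared 1 window, made of the brightest kept probes. The 9 genes, the lists and the tests were chosen with earlier results of these data known. Named genes are all 9 with every probe, and of each other list the 3 highest and 3 lowest, except 1 that is not reported here. Alternatives were processed signals, the value table, median centring, other filters, gene-level fits, separate-channel limma (statmod 1.5.0), each array alone and centring on like intensity.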

Additional observations from a re-analysis of the deposited data

How the results depend on the processing

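The number of arrays and the fixed dyes limit every call, and bright probes depend on the normalisation. The median of the 9 genes (-0.14) was -0.44 with processed signals and -0.44 with the value table, -0.33 with the mean of kept probes, -0.37 centred on like intensity (chosen after seeing the data) and 0.22 with median centring. The number higher on both arrays (2) was 1 with processed signals, the value table and like-intensity centring, and 6 with median centring, which left 1 lower on both (6 or 7 otherwise) and 0 lower at an unadjusted p under 0.05 (4 or 5 otherwise). The number called (0) was 1 with median centring and 3 with separate-channel limma. Median centring turned Cd3d (0.23), the brighter Cd3e probe (0.16), Zap70 (0.22) and Lat (0.47). Lck turned with processed signals (-0.18), the value table (-0.18) and like-intensity centring (-0.083), and Zap70 without replicate 1 (0.016). The other filters and the fit over genes turned no probe of the 9 genes and called none. The cause of these changes was not tested.

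Coreceptor genes (median -0.13) gave -0.34 with processed signals, -0.34 with the value table and 0.51 with median centring, where 1 was lower on both arrays. One of them was higher on both with processed signals, the value table, the mean of kept probes and like-intensity centring (1 in place of 2). The further pathway genes (-0.15) gave -0.17 with processed signals and the value table and -0.10 with the mean of kept probes. They gave -0.11 with like-intensity centring and 0.15 with median centring. With median centring 3 were lower and 13 higher on both arrays, against 23% and 53.7% of kept probes. The counterparts (0.23) gave 0.44 with median centring. With 1 array left out, medians ranged from -0.23 to -0.15 for the 9 genes, -0.22 to -0.04 for coreceptors, -0.11 to -0.11 for the further genes and 0.17 to 0.39 for the counterparts. No further paired analysis was possible because the pairing is already in every fit. Each array's ratio sets a deficient sample against the control sample with the same replicate number, which leaves no block to add.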
